A study of Mus musculus with 46 samples.

Results

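The comparison described here is the difference between the day 1 infarct responses of 2 mouse strains: the change in MRL hearts (day 1 minus day 0) minus the change in C57 hearts (day 1 minus day 0). It rests on 15 of the 46 arrays of the series, chosen by their titles. They are 4 arrays of MRL infarct tissue at day 1, 4 of the same region of MRL hearts at day 0, 4 of C57 infarct tissue at day 1 and 3 of the same region of C57 hearts at day 0. MRL stands for MRL/MpJ and C57 for C57BL/6J, both inbred, and all mice were males of 15 to 20 weeks. At day 1 the left coronary artery had been tied off 1 day before. Day 0 hearts came from mice without surgery, so the effects of the operation, with its isoflurane and buprenorphine, and of the infarct cannot be told apart. The infarct sample was taken with a punch and holds the border of the infarct as well. At day 0 the word infarct only names the matching region. The question is whether the strains respond differently to an infarct.

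Infarction cuts off the oxygen of a part of the heart wall. Within a day dying muscle releases signals that draw in neutrophils, resident cells make chemokines and acute phase proteins, and surviving cardiomyocytes switch on stress genes such as the natriuretic peptides. Macrophages, fibroblasts and new matrix take over in the days that follow. MRL mice are known for closing ear holes with little scar, and reports on whether their hearts also heal differently have been mixed.

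A positive difference of changes means that the change was more positive in MRL than in C57, and a negative one that it was more negative. It can arise from a larger rise in one strain, from a fall in one strain only, or from a gap between the strains at day 0 that is gone at day 1. For this reason array levels are given beside it for many of the genes, though not for all. Levels are log2 intensities of Affymetrix probe sets, and differences are on the log2 scale, so that 1 unit is a doubling. The array median lay at 4.25 to 4.48 log2 units. Below that level a signal is close to background, and the size of a change that starts or ends there is not exact. A probe set was called when its adjusted p was under 0.05 in limma's moderated test.

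The tissue labels were borne out by marker levels. The mean level of 14 cardiomyocyte markers was 13.89 ± 0.11 in MRL at day 1 and 14.24 ± 0.05 in MRL at day 0, and 13.76 ± 0.39 in C57 at day 1 and 14.24 ± 0.02 in C57 at day 0 (SD, n = 4, 4, 4 and 3). The 4 neutrophil markers that were tested, of 12 on the array, averaged 8.47 ± 0.49 in MRL at day 1 and 3.30 ± 0.06 in MRL at day 0. In C57 they averaged 9.45 ± 0.34 at day 1 and 3.29 ± 0.12 at day 0. The neutrophil means of the day 1 arrays, 7.77 to 8.83 in MRL and 8.96 to 9.72 in C57, did not overlap. Macrophage markers did overlap at day 1, at 5.86 to 7.42 in MRL and 5.87 to 7.83 in C57. Endothelial markers lay at 8.15 to 8.64 in MRL and at 8.51 to 8.74 in C57. In whole tissue, fewer cells of a type and less RNA per cell cannot be told apart.

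**Figure D1:**
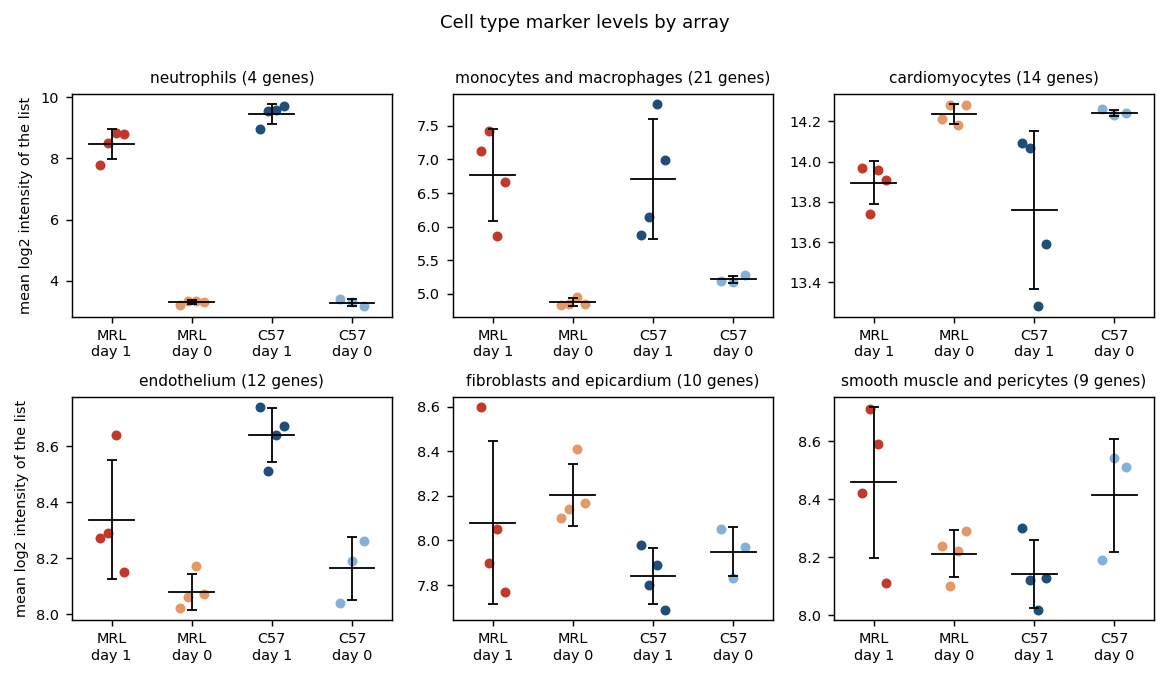
Mean log2 intensity of the tested markers of 6 cell types in each of the 15 arrays, by group. The neutrophil means of the day 1 arrays lie at 7.77 to 8.83 in MRL and at 8.96 to 9.72 in C57, while the macrophage means of the strains overlap.

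Day 1 arrays varied more than day 0 arrays. The median standard deviation of a probe set was 0.354 in MRL at day 1 and 0.166 in MRL at day 0, and 0.385 in C57 at day 1 and 0.22 in C57 at day 0. The third MRL day 1 array stood apart in several of the genes below and had the highest Gapdh 3′ minus 5′ signal of its group, 0.38 against -0.26 to -0.01 in the other three, while its Actb 3′ minus 5′ signal of 1.11 lay within their range of 1.02 to 1.30. In C57 the fourth day 1 array had the highest, 0.41. The test takes its spread from all 23 infarct-region arrays, day 5 included. Among those the library labelled MRL day 5 infarct replicate 3 went against its label. Of 134 probe sets that marked the strain in noninfarct tissue it had 9% on the MRL side. The other MRL day 5 arrays had 56% to 59.7%, the MRL day 1 and day 0 arrays 64.9% to 100% and the C57 arrays 3.7% to 14.9%. It enters the spread here and no mean.

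No probe set was called in opposite directions in the strains. Of 12834 tested probe sets, 2760 (21.5%) were called between day 1 and day 0 in MRL, 1340 of them higher (10.4%) and 1420 lower (11.1%). In C57, 1995 (15.5%) were called, 1205 higher (9.39%) and 790 lower (6.16%). Called in both strains were 812 higher and 501 lower, against 0 in opposite directions. The difference of the changes was called for 6 probe sets (0.0468%), all of them negative. At an unadjusted p under 0.05 there were 478 (3.72%), 146 positive and 332 negative. Over all tested probe sets the difference had a median of -0.03 and ranged from -3.20 to 3.25. Its 5th and 95th percentiles were -0.74 and 0.60, and it lay beyond 1 in either direction for 470. The median standard error was 0.389, and only 6 were called although 470 lay beyond 1. Differences well above 1 log2 unit could thus go uncalled with these numbers of arrays.

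**Figure D2:**
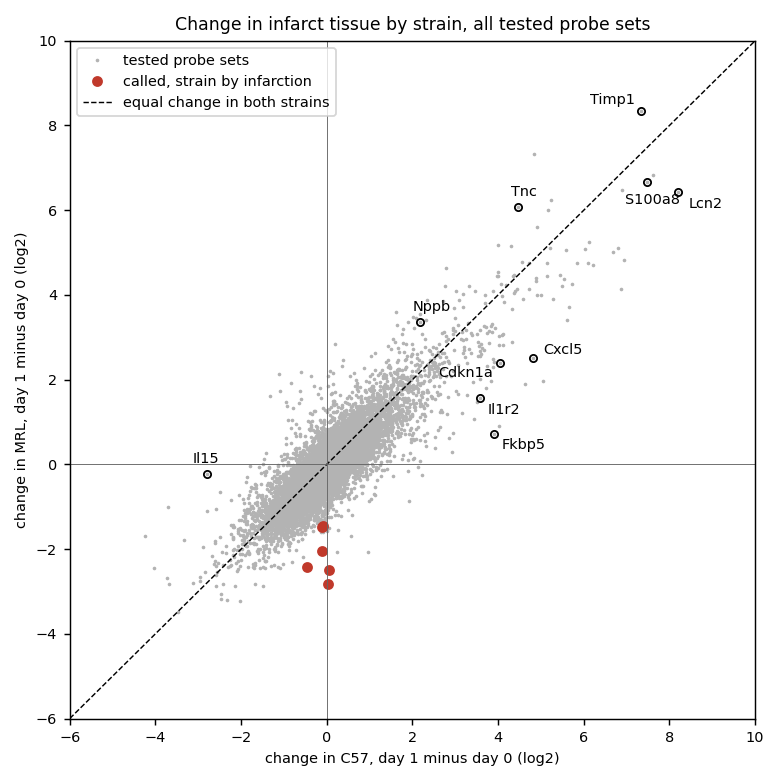
The change from day 0 to day 1 in C57 (x axis) against the change in MRL (y axis), both as log2 differences, for the 12834 tested probe sets, with the dashed line marking equal change. The 6 called probe sets lie below the line, near 0 on the C57 axis and between -2.83 and -1.46 on the MRL axis.

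The 6 called probe sets shared 1 pattern. Each averaged above the array medians in MRL at day 0 and fell in MRL at day 1, to levels at or near those of C57, where all arrays lay low on both days. Only 1454638_a_at kept part of its gap. Named among them were Angpt1, the ligand of the Tie2 receptor that stabilises vessels, and Kcnj5, a subunit of the potassium channel that acetylcholine opens in heart cells. Plekhh1, a protein with pleckstrin homology and FERM domains, and Ociad1, a membrane protein of endosomes and mitochondria, were called through 1 of their probe sets each. A pair of probe sets, 1454638_a_at and 1427213_at, has no symbol in the platform's annotation.

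Plekhh1, on chromosome 12, showed the pattern most clearly. Its probe set 1452517_at read 4.15, 3.67, 3.68 and 4.12 in MRL at day 1 and 6.28, 5.77, 7.10 and 6.46 in MRL at day 0. It read 3.81, 3.59, 3.59 and 3.69 in C57 at day 1 and 3.74, 3.46 and 3.63 in C57 at day 0. The MRL day 0 arrays stood above all others without overlap. The difference of changes was -2.56 ± 0.31 (SE, 95% interval -3.20 to -1.92, limma adjusted p = 0.00057), made up of -2.50 in MRL and 0.06 in C57. Its brighter probe set, 1435053_s_at, gave -2.79 ± 0.54 and was not called (adjusted p = 0.076). There the first MRL day 1 array, at 6.22, lay far above the other three, at 3.66 to 3.70.

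Angpt1, on chromosome 15, had signals of 2.80, 2.86, 2.86 and 2.87 in MRL at day 1, against 4.05, 5.18, 5.16 and 5.13 in MRL at day 0. The C57 signals were 2.95, 2.78, 2.85 and 2.88 at day 1 and 3.02, 2.84 and 3.08 at day 0. Every C57 array and every MRL day 1 array was below the array median, as was the first MRL day 0 array. The difference of changes was -1.92 ± 0.28 (limma adjusted p = 0.0044).

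Kcnj5, on chromosome 9, gave 3.07, 3.05, 2.98 and 3.13 in MRL at day 1 and 4.46, 4.60, 4.18 and 4.82 in MRL at day 0. In C57 it gave 3.15, 2.95, 2.97 and 2.98 at day 1 and 3.17, 3.08 and 3.08 at day 0. All arrays but those of MRL at day 0 lay together near 3, and only 3 of the MRL day 0 arrays passed the array median, narrowly. The difference was -1.36 ± 0.20 (limma adjusted p = 0.0044).

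Ociad1, on chromosome 5, was at 4.22, 3.73, 3.74 and 3.98 in MRL at day 1 and at 5.49, 5.24, 5.47 and 5.35 in MRL at day 0 by its probe set 1424952_at. The C57 arrays had 3.79, 3.61, 3.51 and 3.58 at day 1 and 3.76, 3.72 and 3.69 at day 0. Again MRL at day 0 stood alone. The difference was -1.37 ± 0.21 (limma adjusted p = 0.0047), but its brighter probe set gave -0.31 (unadjusted p = 0.21), so the probe sets of Ociad1 disagreed.

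The unnamed probe set 1454638_a_at had the largest difference of the 6, -2.87 ± 0.41 (limma adjusted p = 0.0044). Its levels were 4.83, 3.98, 5.25 and 3.25 in MRL at day 1 and 6.98, 6.89, 7.62 and 7.14 in MRL at day 0, against 3.05 to 3.31 in C57 at day 1 and 2.95 to 3.23 in C57 at day 0. It was also the only one of the 6 with a called strain difference at day 1, MRL minus C57 being 1.18 (adjusted p = 0.048). The other, 1427213_at, differed by -1.97 ± 0.33 (adjusted p = 0.013). Its levels were 3.59, 3.27, 3.20 and 3.16 in MRL at day 1, 5.73, 5.87, 5.38 and 5.95 in MRL at day 0, 3.70, 3.26, 3.28 and 3.32 in C57 at day 1 and 4.02, 3.29 and 4.24 in C57 at day 0.

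**Figure D3:**
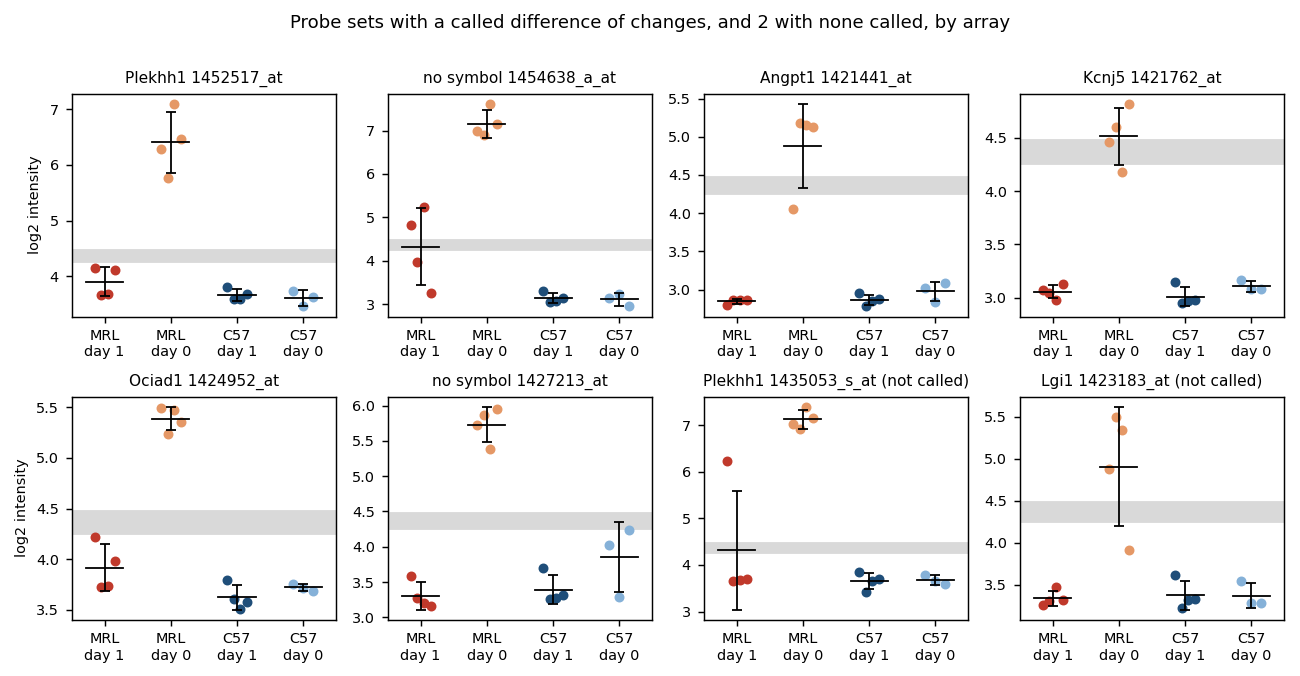
Log2 intensity in each of the 15 arrays (points), with group mean and SD (line and bar), for the 6 called probe sets and for 1 probe set each of Plekhh1 and Lgi1 that was not called. The grey band is the range of the array medians, 4.25 to 4.48, and the MRL day 0 arrays stand above the others.

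These calls carry a limit from the filter on low signals. Only 3 to 6 of the 15 arrays were above their median for each of the 6, mainly those of MRL at day 0, so they were tested only because that group was high. All 6 were also called between the strains at day 0, by 1.41 to 4.05 log2 units. Over all probe sets 137 (1.07%) were called between MRL and C57 at day 0, and 128 (0.997%) at day 1. The day 0 strain difference uses the same arrays as the difference of changes and is no separate evidence. Whether a strain gap at day 0 is one of RNA level or of sequence under the probes cannot be told apart from these arrays.

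In noninfarct tissue the same 6 differences at day 1 all had the same sign and were smaller. They were -1.58 for Plekhh1 (unadjusted p = 0.0083), -1.27 for 1454638_a_at (0.035), -0.89 for Angpt1 (0.048), -0.43 for Kcnj5 (0.25), -0.44 for Ociad1 (0.16) and -1.73 for 1427213_at (0.013). None of these passed after adjustment. The infarct difference minus the noninfarct one was called for 0 of 13138 probe sets (0%) in limma's test, with 123 (0.936%) at an unadjusted p under 0.05. So the data do not show that any of the 6 is particular to infarct tissue. Plekhh1 in noninfarct tissue read 5.79, 5.30, 3.62 and 3.67 in MRL at day 1 and 6.33, 6.19, 6.56 and 5.93 in MRL at day 0, against 3.40 to 3.78 in C57 at day 1 and 3.43 to 3.81 in C57 at day 0. A pair of its MRL day 1 arrays thus lay below every MRL day 0 array and above every C57 array, and the other pair lay within the C57 range.

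At day 5, set against the same day 0 arrays, the differences of the 6 were -2.70 for Plekhh1, -4.11 for 1454638_a_at, -1.85 for Angpt1, -1.34 for Kcnj5, -1.45 for Ociad1 and -1.84 for 1427213_at. Without the library labelled MRL day 5 infarct replicate 3 they were -2.80, -4.10, -1.95, -1.40, -1.44 and -1.93 in the same order. The strain gap of 1454638_a_at was 1.18 at day 1 and -0.06 at day 5, a difference of 1.24 that did not pass (adjusted p = 0.87).

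Of the genes named next for a negative difference, none of which was called, several also fell in MRL from a day 0 level above that of C57. Lgi1, a secreted leucine-rich protein best known from neurons, had a difference of -1.57 ± 0.34 (adjusted p = 0.17), with -1.56 in MRL (adjusted p = 8.2e-05) and 0.01 in C57. Mme, the cell surface peptidase neprilysin, had -1.23 ± 0.27, Fam81a -1.16 ± 0.26, and Abat, which breaks down the transmitter GABA, -1.12 ± 0.31. All 3 fell in MRL, by 1.26, 1.38 and 1.17 on the log2 scale, and had changes of -0.04, -0.22 and -0.05 in C57 that did not pass. Slc22a23, a transporter of unknown cargo, was like them (-1.20 ± 0.30). Of the 15 genes named for a negative difference, 10 were called between the strains at day 0 and 3 at day 1. Over all probe sets these shares were 1.07% and 0.997%. The 15 were chosen by a difference made of the same arrays, so these counts are no separate evidence.

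Another set of genes rose in C57 and did so less, or not detectably, in MRL. Fkbp5, a chaperone of the glucocorticoid receptor and a standard target of glucocorticoids, had the most negative difference of all tested probe sets, -3.20 ± 0.82 (unadjusted p = 0.00088, adjusted p = 0.63). Its levels were 7.59, 7.62, 8.80 and 7.70 in MRL at day 1 and 7.75, 7.63, 5.86 and 7.63 in MRL at day 0. In C57 they were 9.47, 10.28, 8.98 and 9.86 at day 1 and 4.60, 5.88 and 6.73 at day 0. At day 1 all C57 arrays lay above all MRL arrays, while at day 0 the strains overlapped. Fkbp5 rose in C57 by 3.91 (adjusted p = 0.00017), and its change of 0.71 in MRL did not pass (0.38). The third MRL array of each day was out of line with its group. The other Fkbp5 probe set, 1448231_at, gave -1.88, and noninfarct tissue gave -2.95.

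Il1r2, the decoy receptor that binds interleukin 1 without signalling, was at 4.34, 5.26, 7.35 and 5.71 in MRL at day 1 and at 3.91, 4.22, 4.10 and 4.15 in MRL at day 0. C57 had 7.78, 7.35, 7.96 and 7.67 at day 1 and 4.24, 3.92 and 4.16 at day 0. It rose in both strains, by 1.57 in MRL (adjusted p = 0.0053) and 3.59 in C57 (3.2e-06), for a difference of -2.02 ± 0.54 that was not called (adjusted p = 0.69). At day 1 itself the strains differed by -2.03 (adjusted p = 0.0059). All C57 arrays lay at or above the highest MRL array, which was the third. In noninfarct tissue the difference was -0.13.

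Lcn2, the iron-scavenging lipocalin of neutrophil granules and of stressed tissue, rose steeply in both strains. Its levels were 9.12, 9.10, 9.25 and 9.62 in MRL at day 1 and 2.77, 2.77, 3.02 and 2.77 in MRL at day 0. The C57 levels were 10.36, 11.05, 10.60 and 11.56 at day 1 and 2.81, 2.77 and 2.51 at day 0. The day 1 arrays of the strains did not overlap. The rise was 6.44 in MRL and 8.20 in C57, a difference of -1.76 ± 0.49 (unadjusted p = 0.0017, adjusted p = 0.72). At day 1 MRL was lower by 1.62, a difference of -1.62 with an adjusted p of 0.015. In noninfarct tissue at day 1 Lcn2 lay at 8.43 to 9.10 in MRL and at 9.87 to 11.19 in C57, again without overlap. The neutrophil marker S100a8 there lay at 4.46 to 7.61 in MRL and at 5.21 to 8.27 in C57. The neutrophil markers as a list, Lcn2 among them, were also lower in MRL in infarct tissue at day 1, as given above. Their part in the results for Lcn2 and Il1r2 was not tested. The alarmins S100a8 and S100a9, made by neutrophils, had differences of -0.81 ± 0.65 and -0.79 ± 0.72, with rises of 6.65 and 6.84 in MRL and of 7.47 and 7.63 in C57. Mmp9, the gelatinase of neutrophil granules, had -0.56 ± 0.77.

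Cdkn1a, the p53 target that stops the cell cycle, was at 8.23, 9.34, 10.97 and 9.89 in MRL at day 1 and at 7.10, 7.17, 7.89 and 6.67 in MRL at day 0. It was at 11.16, 10.50, 10.28 and 10.37 in C57 at day 1 and at 6.69, 6.05 and 6.86 in C57 at day 0. It rose in both strains, by 2.40 in MRL and 4.04 in C57, and the difference of -1.64 ± 0.59 did not pass (unadjusted p = 0.011). The third MRL day 1 array was again the highest of its group and within the C57 range. The other Cdkn1a probe set, 1421679_a_at, rose by 4.14 in MRL and 6.865 in C57. Its difference of -2.725 ± 0.87 was not called either (limma unadjusted p = 0.0051, adjusted p = 0.93).

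The third MRL day 1 array was also out of line for the neutrophil-attracting chemokine Cxcl5. The levels of Cxcl5 were 5.43, 5.05, 10.62 and 6.32 in MRL at day 1 and 4.15, 4.49, 4.25 and 4.49 in MRL at day 0. C57 had 9.33, 9.30, 9.53 and 8.94 at day 1 and 4.65, 4.28 and 4.45 at day 0. Of the 4 MRL day 1 arrays 3 lay well below every C57 array and the third above them all. With all arrays the difference was -2.30 ± 1.06 (unadjusted p = 0.041). Without the third MRL day 1 array it was -3.55 ± 0.39 with a limma adjusted p of 0.00012. Leaving out the array that lay highest by itself lowers the MRL mean and the spread, so this value is no separate evidence. The same omission raised the calls from all probe sets to 16, all negative. Among them were Il1r2 (-2.58, adjusted p = 0.00057), Ddit4, a stress-induced inhibitor of mTOR (-3.57, 0.0051), and Tiparp, a target of the aryl hydrocarbon receptor (-2.18, 0.045). Ddit4 and Tiparp were picked out after their values were seen, and for Il1r2 the array left out was also the highest of its group.

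Some genes that rose in C57 took part in vessels and matrix. Mmp3, the protease stromelysin, rose in C57 by 2.03 (adjusted p = 0.00018) and had a change of 0.57 in MRL that did not pass, for a difference of -1.46 ± 0.43 (unadjusted p = 0.0028). Its levels were 4.10, 3.90, 4.95 and 4.45 in MRL at day 1 and 3.75 to 3.87 in MRL at day 0, against 4.94, 6.71, 5.60 and 6.24 in C57 at day 1 and 3.75 to 3.96 in C57 at day 0. The day 1 groups overlapped only by the lowest C57 array and the third MRL array. Esam, an adhesion molecule of endothelial junctions, was at 8.93, 8.92, 9.24 and 8.73 in MRL at day 1 and at 9.86, 9.40, 9.88 and 9.70 in C57 at day 1, with 8.57 to 8.98 in MRL and 8.61 to 8.99 in C57 at day 0. It rose by 0.90 in C57 (adjusted p = 0.0028), and its difference was -0.78 ± 0.26 (unadjusted p = 0.0063). Plat, the tissue plasminogen activator, rose in both strains, by 1.02 in MRL and 2.12 in C57 (difference -1.10 ± 0.46, unadjusted p = 0.026). Pnp, which splits purine nucleosides, rose in C57 by 2.26, and its change of 0.69 in MRL did not pass. At day 0 it lay higher in MRL, at 7.62 to 7.99 against 6.08 to 6.79 in C57. Its day 1 levels overlapped, at 7.99 to 9.18 in MRL and 8.17 to 9.19 in C57. Rit1, a Ras-type GTPase, and Ggps1, which makes the lipid anchor of such GTPases, rose in C57 by 0.82 and 0.95, with changes of -0.52 and -0.27 in MRL that did not pass. Their other probe sets disagreed: the C57 change was -0.45 for Rit1 and 0.25 for Ggps1, and the differences were -0.37 (unadjusted p = 0.39) and -0.20 (0.55). Rit1, by its brighter probe set, also lay higher in MRL at day 0, at 7.99 to 8.20 against 6.81 to 7.38 in C57. Its day 1 levels overlapped.

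No positive difference was called. Phkg1, the catalytic subunit of phosphorylase kinase in muscle, came closest, at 1.68 ± 0.35 (unadjusted p = 0.00011, adjusted p = 0.15). Its levels were 4.27, 4.97, 4.57 and 5.13 in MRL at day 1 and 4.37, 4.55, 4.46 and 4.45 in MRL at day 0. C57 had 5.21, 5.11, 4.71 and 4.77 at day 1 and 5.54, 7.09 and 6.44 at day 0. Here C57 at day 0 stood above all other arrays, and Phkg1 fell in C57 by 1.41 on the log2 scale (adjusted p = 0.00092). Its other probe set, 1425164_a_at, gave 1.60 ± 0.39.

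Il15, a cytokine that keeps natural killer and memory T cells alive, had the same shape. It was at 3.39, 3.60, 3.50 and 3.72 in MRL at day 1, 3.71, 3.88, 4.05 and 3.44 in MRL at day 0, 5.13, 5.18, 4.10 and 4.66 in C57 at day 1 and 6.97, 7.48 and 8.22 in C57 at day 0. MRL arrays were below the array median on both days. The difference was 2.57 ± 0.70 (adjusted p = 0.72), the fall in C57 -2.79 (adjusted p = 0.00092) and the strain gap at day 0 -3.79 (adjusted p = 0.00019). Without the library labelled MRL day 5 infarct replicate 3, which only adds to the spread, Il15 was called (adjusted p = 0.037), as was Lcn2 (0.045). The count was then 8, of which 1 was positive.

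Further genes fell in C57 while their change in MRL did not pass. Cd200, a ligand that restrains macrophages, fell by 1.43 in C57 (adjusted p = 0.00092) and had a change of -0.25 in MRL (difference 1.18 ± 0.36). It was already lower in MRL at day 0, at 6.35 to 6.59 against 7.72 to 8.03 in C57. At day 1 the strains overlapped, at 5.87 to 6.53 in MRL and 5.82 to 6.67 in C57. Notch3, the Notch receptor of vascular smooth muscle, had levels of 8.32, 7.56, 8.21 and 7.22 in MRL at day 1 and 7.92 to 8.04 in MRL at day 0, against 6.05, 7.04, 6.71 and 7.02 in C57 at day 1 and 8.03 to 8.25 in C57 at day 0. It fell by 1.43 in C57 (adjusted p = 0.0037), its day 1 arrays did not overlap between strains, and its difference was 1.26 ± 0.43 (unadjusted p = 0.0076). Pkdcc, a secreted tyrosine kinase, was at 7.16, 6.42, 7.65 and 7.00 in MRL at day 1 and 7.16 to 7.93 in MRL at day 0, and at 5.22, 6.27, 4.75 and 5.31 in C57 at day 1 and 7.15 to 7.33 in C57 at day 0. Its fall of -1.87 in C57 passed (adjusted p = 0.00063), as did the strain difference at day 1 (1.67, adjusted p = 0.0064), and the difference of changes was 1.46 ± 0.45. Col15a1, a basement membrane collagen, and Cxcl12, the chemokine that holds stem and immune cells in place, fell in C57 by 1.80 and 0.94 on the log2 scale, and their values of -0.05 and -0.21 in MRL did not pass.

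Some genes rose in MRL and did not pass in C57. Ccl11, the eosinophil chemokine eotaxin, rose by 1.65 in MRL (adjusted p = 0.0024) and had a change of 0.09 in C57 (difference 1.56 ± 0.51, unadjusted p = 0.0059). Pdgfa, a growth factor for fibroblasts, was at 7.41, 8.14, 9.38 and 8.56 in MRL at day 1 and at 5.98 to 6.51 in MRL at day 0, and at 6.28, 6.24, 7.50 and 7.91 in C57 at day 1 and 6.33 to 6.56 in C57 at day 0. It rose by 2.08 in MRL (adjusted p = 0.00094), while its change of 0.55 in C57 did not pass and its C57 day 1 arrays split into 2 at the day 0 level and 2 above it. The difference was 1.53 ± 0.57 (unadjusted p = 0.014), with 0.52 by the other probe set of Pdgfa (0.28). The cyclin Ccnd1, which drives entry into the cell cycle, had 9.10, 9.18, 7.50 and 8.28 in MRL at day 1 and 7.91, 7.54, 8.25 and 7.87 in MRL at day 0, and 8.06, 7.27, 8.73 and 7.57 in C57 at day 1 and 8.86, 8.69 and 9.02 in C57 at day 0. Neither its change in MRL (0.62) nor that in C57 (-0.95) passed, and its difference was 1.57 ± 0.49 (unadjusted p = 0.0044), with 1.54 and 1.96 by its other probe sets. Of the 15 genes named for a positive difference, 5 were called between the strains at day 0 and 1 at day 1. Over all probe sets these shares were 1.07% and 0.997%. Of the changes of the 15, 4 passed in MRL and 7 in C57, against 21.5% and 15.5% of all probe sets. The 15 were chosen by a difference made of the same arrays, so these counts are no separate evidence.

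**Figure D4:**
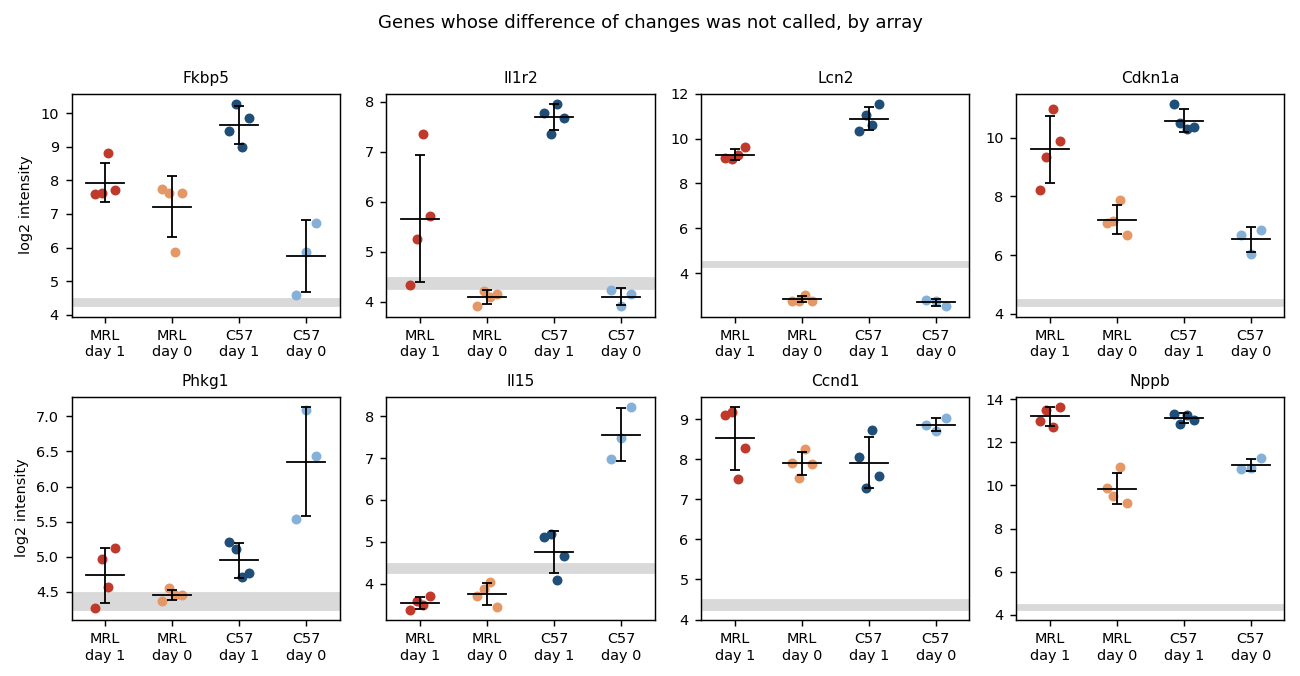
Log2 intensity in each of the 15 arrays (points), with group mean and SD, for 8 genes whose difference of changes was not called. At day 1 Fkbp5, Il1r2 and Lcn2 are lower in MRL than in C57 in all or nearly all arrays, while Phkg1 and Il15 are highest in C57 at day 0.

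Gene lists of the pathways of early infarct healing were set beside all tested probe sets. The median difference of a list is read here against -0.03 over all tested probe sets, of which 46.5% were above 0. Of all probe sets 10.4% rose in MRL and 9.39% in C57. Counts of members that rose in each strain stand side by side with no test between them. Only 1 member of the 36 lists was called, Angpt1.

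The cardiac stress genes had a median difference of -0.002 over 12 members, 6 above and 6 below 0, and 10 rose in MRL and 9 in C57. The natriuretic peptide gene Nppb had 12.98, 13.50, 12.70 and 13.64 in MRL at day 1 and 9.88, 9.51, 10.84 and 9.20 in MRL at day 0, and 13.33, 12.83, 13.26 and 13.04 in C57 at day 1 and 10.78, 10.81 and 11.25 in C57 at day 0. It reached the same range in both strains, and its difference of 1.19 ± 0.52 (unadjusted p = 0.034) came with a day 0 level that was lower in most MRL arrays. Nppa, the atrial peptide, had a difference of 0.39 ± 0.61. The stretch-induced Ankrd2 rose by 6.23 in MRL and 5.25 in C57, and Acta1, the skeletal actin of the fetal heart, had 0.57 ± 0.45. Myh7, the slow myosin heavy chain, had -0.88 ± 1.20, and Myh6 and Atp2a2, the main adult myosin and the calcium pump, had 0.24 ± 0.51 and 0.23 ± 0.35.

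No difference of a fuel gene was called. Of 18 tested genes of fatty acid oxidation 13 were below 0 with a median of -0.27. In MRL 6 of the 18 fell, against 11.1% of all probe sets, and in C57 0 did, against 6.16%. The 6 held Acads, a short-chain dehydrogenase (-1.39 in MRL, -0.90 in C57), and Hadha of the trifunctional protein (-1.12 in MRL, -0.67 in C57), whose differences of changes were -0.49 ± 0.49 and -0.45 ± 0.59. In the list of glycolysis and hypoxia genes 15 of 20 were below 0, with a median of -0.18, and the 20 genes of oxidative phosphorylation had 9 above and 11 below 0, with a median of -0.05, close to that of all probe sets. None of these lists had a member with an unadjusted p under 0.05.

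Chemokines and cytokines went both ways. Of 21 tested, 15 rose in MRL and 10 in C57, against 10.4% and 9.39% of all probe sets. The median difference was 0.40, with 15 above 0, and 3 positive and 1 negative passed unadjusted. Those were Ccl11, Cxcl12 and Csf1, the macrophage growth factor (0.69 ± 0.28), on the positive side and Cxcl5 on the negative. Ccl2, the monocyte chemokine, rose by 4.44 in MRL and 4.36 in C57, a difference of 0.09 ± 0.79. The mean levels of the neutrophil chemokine Cxcl2 and of interleukin 6 rose in both strains too, with differences of -2.12 ± 1.30 and -0.92 ± 1.50. In MRL at day 1 Cxcl2 was at 4.01, 5.97, 11.12 and 9.21, against 9.27 to 10.37 in C57. Interleukin 6 was at 4.6, 4.76, 10.95 and 8.43, against 7.46 to 9.46. For both the first and second MRL arrays lay below every C57 array and the third above them all. The list of cytokine receptors and signalling genes had a negative median instead, -0.32, with 14 of 19 below 0. Beside Il1r2 these held Cebpd, an acute phase transcription factor (-2.05 ± 0.92), while Tnfrsf12a, the receptor of TWEAK, was at 1.46 ± 0.63, with rises of 3.35 in MRL and 1.89 in C57.

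Antigen presentation had the most positive median of the lists with at least 8 tested members, 0.81 over 12, with 10 above 0 and 6 positive at an unadjusted p under 0.05. The mean level of the list lay at 5.76 to 5.87 in MRL at day 0 and at 6.1 to 6.87 in MRL at day 1. In C57 it lay at 7.41 to 7.93 at day 0 and at 7.12 to 8.03 at day 1. On both days every MRL array was thus below every C57 array. H2-Aa, a chain of class II MHC, was at 6.99, 7.42, 4.02 and 6.85 in MRL at day 1 and at 4.67, 4.86, 4.19 and 3.19 in MRL at day 0. C57 had 7.20, 6.53, 8.76 and 7.53 at day 1 and 7.48, 7.77 and 8.41 at day 0. The MRL arrays of day 0 lay well below those of C57 (-3.66, adjusted p = 0.0037), and all MRL day 1 arrays but the third came into the C57 day 1 range. H2-Aa rose by 2.09 in MRL (adjusted p = 0.017), for a difference of 2.47 ± 0.87 (unadjusted p = 0.01). Its other probe set, 1452431_s_at, gave 1.60 (unadjusted p = 0.11). Cd74, the chaperone of class II, rose by 2.08 in MRL (adjusted p = 0.0071) and had a change of 0.02 in C57. Its levels were 8.94, 9.70, 7.44 and 9.27 in MRL at day 1 and 6.37 to 7.00 in MRL at day 0, against 7.85 to 9.79 in C57 at day 1 and 8.03 to 9.06 in C57 at day 0. C57 and MRL mice carry different MHC haplotypes, so for H2 genes a gap in RNA level and a sequence difference under the probes cannot be told apart. The interferon genes had a median of 0.28, with 14 of 17 above 0. Their mean level was lower in MRL at day 0, at 4.57 to 4.72 against 5.34 to 5.81 in C57. At day 1 the strains overlapped, at 4.77 to 5.17 in MRL and 4.98 to 6.5 in C57. Among the interferon genes Gbp3, a guanylate-binding protein, was at 1.45 ± 0.48. Of all 12344 probe sets tested in noninfarct tissue it was the 1 called there (0.0081%), at 2.31 ± 0.31 (limma adjusted p = 0.0044), with levels of 5.39 to 6.44 in MRL at day 1 and 5.25 to 5.95 in MRL at day 0, against 3.49 to 4.00 in C57 at day 1 and 5.65 to 6.20 in C57 at day 0.

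**Figure D5:**
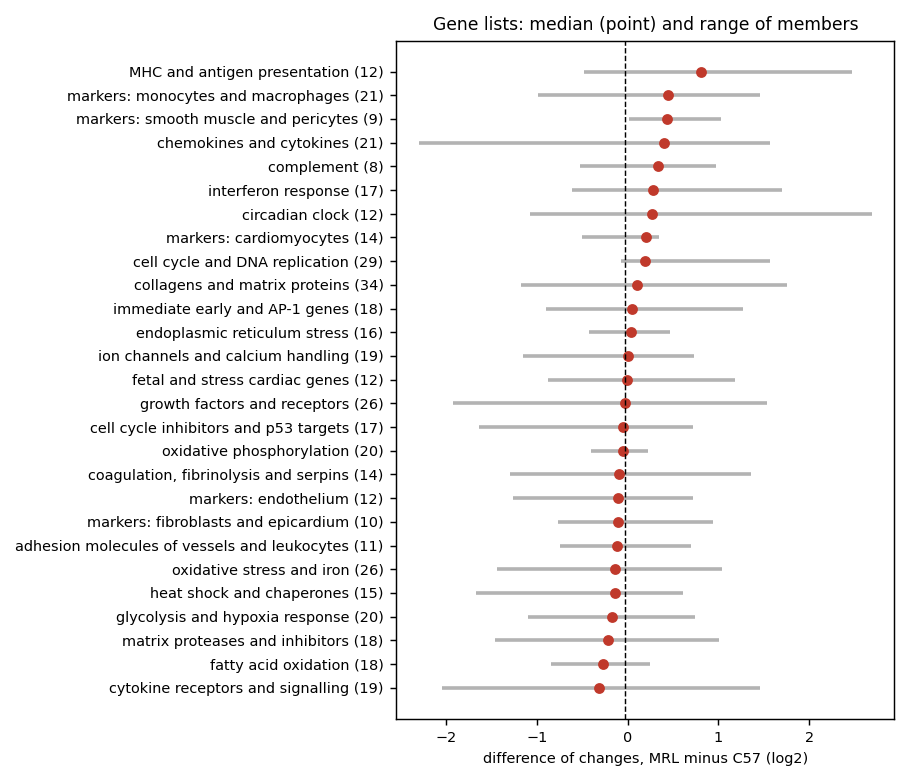
Median (point) and range (line) of the difference of changes on the log2 scale over the tested members of each list with at least 8, with a dashed line at the median of all tested probe sets. The medians run from -0.32 for cytokine receptors to 0.81 for antigen presentation, and the members of most lists lie on both sides of 0.

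Marker lists of resident and incoming cells were spread around 0. Macrophage markers had a median of 0.45 with 16 of 21 above 0, and 11 rose in MRL and 6 in C57, against 10.4% and 9.39% of all probe sets. Their mean level at day 0 was lower in MRL, at 4.83 to 4.96 against 5.18 to 5.28 in C57. At day 1 it was 6.77 ± 0.68 in MRL and 6.71 ± 0.89 in C57 (SD), so MRL was not clearly higher. Smooth muscle and pericyte markers were all 9 above 0, with a median of 0.44, and cardiomyocyte markers 13 of 14 above 0, with a median of 0.20. No member of these 3 lists passed unadjusted. The endothelial median was -0.10 over 12 with 2 negative at an unadjusted p under 0.05, Esam and the clotting factor carrier Vwf (-1.26 ± 0.50).

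Among repair genes no difference other than that of Angpt1 was called. Collagens and matrix proteins had a median of 0.10 over 34, and 12 rose in MRL and 11 in C57. Tnc, the matrix protein tenascin C of healing wounds, rose by 6.08 in MRL and 4.47 in C57 (1.60 ± 0.83), and Timp1, the inhibitor of matrix proteases, by 8.33 and 7.32 in the same order (1.01 ± 0.82). At day 0 Timp1 lay below the array median, at 1.96 to 2.2 in MRL and at 2.68 to 2.77 in C57. Growth factors and receptors had a median of -0.03 over 26, with 13 on each side. Cell cycle genes had 21 of 29 above 0, with a median of 0.19, and 2 rose in MRL and 0 in C57. The heat shock genes had a median of -0.14, with Hspa1a, an inducible chaperone, rising in both strains (-1.67 ± 1.25).

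The 12 tested clock genes had a median difference of 0.27, with 7 above 0 and 5 below. Dbp, a transcription factor that the circadian clock drives, was at 9.71, 7.61, 8.85 and 6.30 in MRL at day 1 and at 9.82, 9.39, 7.08 and 10.24 in MRL at day 0. It was at 6.68, 6.14, 5.77 and 7.64 in C57 at day 1 and at 10.22, 10.41 and 10.17 in C57 at day 0. It fell in C57 by 3.71 on the log2 scale (adjusted p = 0.0014), its change of -1.02 in MRL did not pass, and the difference was 2.69 ± 0.97 (unadjusted p = 0.012). The MRL day 1 arrays of Dbp were spread over more than 3 log2 units. The third MRL day 0 array was lowest of its group for Dbp and, at 5.37 against 3.24 to 3.32, highest of its group for the clock activator Arntl. The time of day of the sampling is not given in the labels, and its part in the values of Dbp was not tested.

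The response at day 5 gave more calls than that at day 1 for the same 23 arrays. The difference of changes at day 5 was called for 20 probe sets (0.156%), and for 74 without the library labelled MRL day 5 infarct replicate 3. Both differences use the same day 0 arrays. The test that compares them directly, the strain difference at day 1 minus that at day 5, was called for 7 (0.0545%), and for 49 without that library. Of the 7, Fcgr4, an activating antibody receptor of myeloid cells, gave 3.33 ± 0.38 (limma adjusted p = 0.00024). Pclaf, a replication factor partner, gave 2.42 ± 0.39 (0.012) and Pttg1, the securin of mitosis, -2.98 ± 0.51 (0.018). At day 1 their differences of changes were -0.13 for Fcgr4, 0.01 for Pclaf and 0.23 for Pttg1 by the same probe sets.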

How the data were processed

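Left ventricular tissue was hybridized to Affymetrix MOE430A arrays, 1 array a sample. The deposited values are intensity values on a linear scale, which the authors made with GCRMA per the submitters' processing notes; no version is given. Log2 was taken with no pseudocount. Of 22690 probe sets, 64 controls were left out. A probe set was tested if it lay above its array's median in at least 3 of the 23 infarct-region arrays, which 12834 did. A mean for each of the 6 groups was estimated on these arrays. Contrasts were tested two-sided with limma's lmFit and eBayes (version 3.58.1, R 4.3.3), adjusted by Benjamini-Hochberg over all tested probe sets. The procedure was tested on simulated data. Noninfarct tissue was fitted on its own 23 arrays, and the comparison of regions on all 46.

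A gene was represented by its brightest tested probe set with 1 symbol (7608 genes). The platform's symbols were matched to RefSeq for 11764 of 11774 tested probe sets. Genes were named by a rule: the called genes with the largest differences and then those of smallest p up to 15 a direction, up to 4 members a list by p, and a set of index genes. Members and lists were chosen with earlier results of these data known.

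The labels call the arrays biological replicates. Replicate numbers do not pair samples: deviations of same-numbered arrays correlated at -0.44 to 0.18 in 21 pairs, 1 of them above 0.1. No 2 arrays held identical values. Which infarct and noninfarct samples share a heart is not given in the sources used here, so p-values of the comparison of regions take them as separate. The number of arrays limits the precision. No detection calls were used.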

Additional observations from a re-analysis of the deposited data

Results flagged for a closer look

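The strains differed in their day 1 change, by the test of that difference, for 6 probe sets: Plekhh1 (-2.56), 1454638_a_at (-2.87), Angpt1 (-1.92), Kcnj5 (-1.36), Ociad1 (-1.37) and 1427213_at (-1.97). All 6 were tested only because MRL at day 0 was high. Their C57 levels lay below the array medians on both days, where a fall could hardly show. The strain difference at day 1 minus that at day 5 passed for Fcgr4 (3.33), 1455892_x_at (-2.25), Cd300ld (1.47), Kcnj15 (2.05), Pclaf (2.42), Ms4a4c (2.55) and Pttg1 (-2.98). In noninfarct tissue Gbp3 (2.31) passed.

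A single array stood apart from the other three of its group by Dixon's test at 95%, which sets the gap against the group's range and not against its size, in 35 of 492 groups of 4 (7.1%), where chance gives about 5%, or 24.6 groups. Some of these gaps are small and lie below the array median, as for Ankrd2, Ppbp and Mmp3 in MRL at day 0. The third MRL day 1 array was such an array 6 times: for H2-Aa (4.02), Fkbp5 (8.80), Nppa (12.37), Csf1 (8.56), the protease inhibitor Timp4 (8.40) and the iron exporter Slc40a1 (6.96). The first MRL day 1 array was so for Plekhh1 by 1435053_s_at (6.22), Myh7 (11.43), the antibody gene Ighm (9.09) and C1qb of complement (8.31). The second was so for the fatty acid transporter Cd36 (11.90) and Pdk1 (4.72), and the fourth for Nr2f2 (5.28).

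In MRL at day 0 the first array stood apart for Angpt1 (4.05), Tnc (4.07), the platelet chemokine Ppbp (2.30), Ankrd2 (3.11) and Plat (5.72). The second did for Rit1 (7.99), Timp1 (1.96) and Mmp3 (3.87). The third did for Fkbp5 (5.86), Lcn2 (3.02), Ccnd2 (9.79) and the clock genes Arntl (5.37) and Tef (7.94). The fourth did for Abat (5.12), Tyrobp of myeloid cells (2.97) and Fabp4 (13.57). In C57 at day 1 they were the first array for Kcnj5 (3.15) and 1427213_at (3.70), the second for Cd200 (5.82) and the third for Slc25a20 (9.54), Calr (12.51) and Serpina3n (8.98).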

How the results depend on the processing

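The count of 6 called differences stayed at 6 with quantile normalization, median centring, moderated variance with trend and robust settings, and the replicate block, all 6 probe sets being shared. It was 5 with an offset of 32 added before log2 (4 shared, without Angpt1 and Kcnj5) and 7 with only the 15 arrays (6 shared, plus Il15). It was 12 with no filter (2 positive), 13 with all 46 arrays in 1 fit (5 shared, 3 positive) and 0 with a stricter filter, above the median in at least 12 arrays, under which none of the 6 was tested. Leaving out 1 array gave 4 to 16 in 15 settings, the highest without the third MRL day 1 array. Angpt1 and Kcnj5 were above the median in just 3 arrays, and leaving out any of these left them below the filter and untested. Their differences were then -1.84 to -1.82 for Angpt1 (without MRL day 0 replicate 2, 3 or 4) and -1.38 to -1.26 for Kcnj5 (without 1, 2 or 4). The call of 1427213_at ended without MRL day 0 replicate 2 or 4 (-1.92, adjusted p = 0.055, and -1.89, 0.058) or C57 day 0 replicate 2 (-1.68, 0.063). Those of Plekhh1, Ociad1 and 1454638_a_at held in all 15. Leaving out the library labelled MRL day 5 infarct replicate 3, a choice made after seeing the data, gave 8.

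The day 1 minus day 5 count of 7 was 9 with the replicate block and 3 with the offset. It ranged from 6 to 49 over 16 omissions, with 14 without MRL day 1 replicate 3, 17 without C57 day 5 replicate 1 and 49 without MRL day 5 replicate 3. The comparison of regions had 0 calls with the replicate block, and 0 to 2 over 30 omissions, 1 without C57 day 0 infarct replicate 1 and 2 without MRL day 1 infarct replicate 3. The causes were not tested. The block changed no call of a named gene. Of 4057 tested gene values under other settings 6 lost and 16 gained a call, and none that was called changed sign. Quantile normalization or centring moved 4 list medians to 0 or across it, those of cardiac stress genes (0.027 with quantile normalization), adhesion molecules (0), growth factors (0.049) and cell cycle inhibitors (0.012).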
